A study of Mus musculus with 8 samples.

Results

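The Gimap genes (GTPases of the immunity-associated proteins) were described in mouse common lymphoid progenitors (CLPs), the bone marrow precursors of B, T and natural killer cells. The 8 genes taken were Gimap1 and Gimap3 to Gimap9, chosen by symbol among the 39179 gene IDs that each library lists. Expression was measured by RNA sequencing after removal of ribosomal RNA in 2 groups of 4 libraries from C57BL/6 mice. For the ex vivo CLP group, cells were isolated fresh from bone marrow. The cCLP group came from bone marrow progenitors grown for 2 months on OP9, a mouse stromal cell line, with Flt3 ligand and little IL-7. Both were sorted as lineage-negative cells that carry CD27, the IL-7 receptor and Flk2 (encoded by Flt3) and lack Ly6d. No agent or allele other than this culture was named, and no label tied a library to an animal or a culture, so p-values measure only the spread between these libraries.

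Gimap proteins bind GTP, and some are anchored to inner membranes of the cell. They are made mainly in lymphocytes and their precursors, where they act on survival, and mice or rats that lack Gimap5 have few T cells. The genes lie side by side in mammalian genomes. In these data Gimap6 and Gimap9 had the highest values of the family, and Gimap3 and Gimap4 were at or near 0. Over the 8 libraries as labelled 0 of the 8 members were called as changed, as were 0 of all genes, with or without a filter on low values. Once the library of each group that lay with the other group was left out, Gimap6 was 3.82-fold lower in cCLPs, while Gimap9 and Gimap1 were not called. These 3 were the members high enough to test with the filter. In that comparison 43.0% of all genes tested were called, 22.2% of them all as lower, so the call is not particular to Gimap6.

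The libraries need a word before the results, because 1 in each labelled group lay with the other group. Over the 6629 most abundant genes other than Gimap genes, ex vivo CLP 2 had Spearman's rho of 0.959 to 0.986 with cCLP 2, 3 and 4, against 0.745 to 0.804 with ex vivo CLP 1, 3 and 4 and cCLP 1. The rho of cCLP 1 was 0.950 to 0.981 with ex vivo CLP 1, 3 and 4, against 0.774 to 0.798 with cCLP 2, 3 and 4 and ex vivo CLP 2. These values are across genes, which are not replicates, and carry no test. Whether the labels of these libraries had been exchanged was not tested, and an exchange would change what each value over the 8 libraries means. Fold changes of the members and of other named genes are therefore given over the 8 libraries as labelled, or said not to be called there, and over 6 libraries, without ex vivo CLP 2 and cCLP 1. The choice of the 6 rests on whole profiles, and p-values over them are conditional on it. The deposited values are whole numbers on a scale that is not given in the sources used here and vary less than read counts would, so sequencing depth is unknown. Per library their sum lay between 378594 and 704305.

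The 8 genes lie on chromosome 6 between 48647234 and 48770851 (GRCm38), a span of 124 kb, in the order Gimap8, Gimap9, Gimap4, Gimap6, Gimap7, Gimap1, Gimap5 and Gimap3. Gimap6 and Gimap3 lie on the minus strand and the other 6 on the plus strand, so Gimap6 and Gimap7 point away from each other, with 10.4 kb between their starts. To compare levels between genes, each scaled value (the deposited value divided by a library factor) was divided by the exon length of its gene in kb. Whether the deposited values had already been corrected for length is not stated, and their median over protein-coding genes was 23.8 in the bin with the shortest exons and 10.6 in that with the longest (4 equal bins). In ex vivo CLP 1, 3 and 4, Gimap6 had the highest level per kb, 42.6 ± 7.05 (SD, n = 3), followed by Gimap9 at 25.4 ± 7.74. Next came Gimap1 at 5.76 ± 2.36 and Gimap7 at 5.49 ± 4.47, which did not differ beyond their spread. Levels per kb were 2.48 ± 0.760 for Gimap5, 1.89 ± 1.27 for Gimap8 and 1.17 ± 0.320 for Gimap4, and neighbours in this order again lay within their spread. In cCLP 2, 3 and 4 the order began with Gimap9, at 28.3 ± 3.53 per kb, followed by Gimap6 at 10.9 ± 1.04 and Gimap1 at 5.27 ± 0.419. Gimap7, at 0.414 ± 0.0443 per kb, had moved from the fourth place to the seventh. The summed scaled value of all 8 members was 305, 113, 224 and 188 in ex vivo libraries 1 to 4 and 218, 101, 110 and 122 in cCLP 1 to 4.

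**Figure D1:**
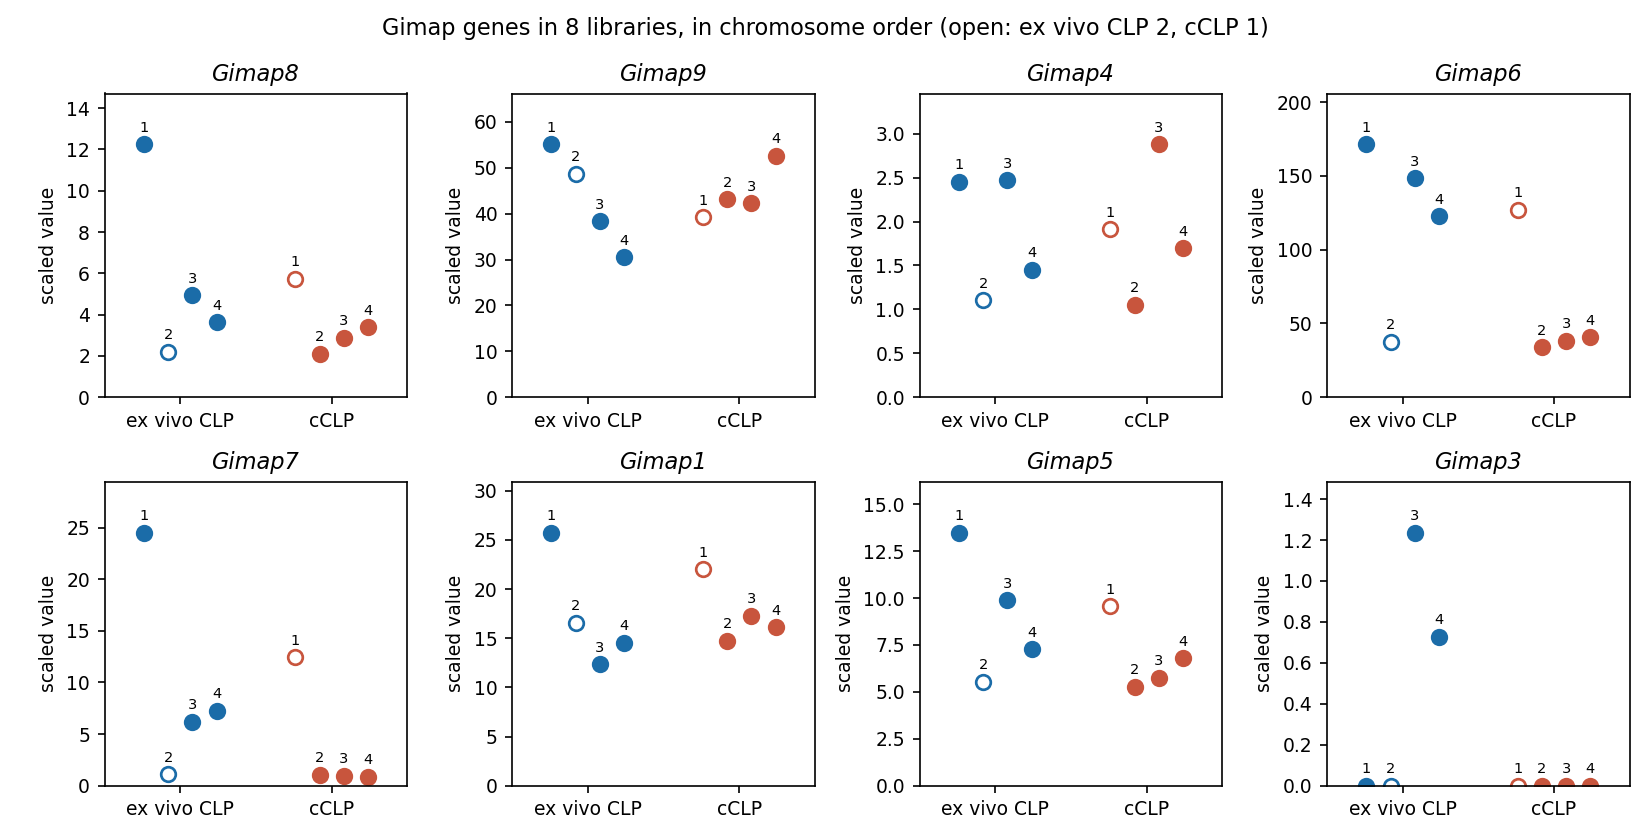
Scaled value (deposited value over a library factor, linear axis from 0) of each Gimap gene in the 4 ex vivo CLP and the 4 cCLP libraries, with the replicate number above each point and open circles for ex vivo CLP 2 and cCLP 1. Gimap6 was between 123 and 172 in ex vivo CLP 1, 3 and 4 and between 33.7 and 40.7 in cCLP 2, 3 and 4, while the points for Gimap9 and Gimap1 overlap.

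The first member to be described is Gimap6, which encodes a GTPase that binds the autophagy protein Gabarapl2. Gimap6 (ENSMUSG00000047867, chromosome 6, 48701582 to 48708225, minus strand) was listed at 140, 34, 120 and 169 in ex vivo libraries 1 to 4. In cCLP 1 to 4 it stood at 133, 32, 40 and 48. High values were those of ex vivo CLP 1, 3 and 4 and cCLP 1, low values those of cCLP 2, 3 and 4 and ex vivo CLP 2, and the labelled groups overlapped. As labelled, mean scaled values of Gimap6 were 120.1 ± 58.5 (SD, n = 4) for the ex vivo group and 60.0 ± 44.9 for the cCLP group. The log2 fold change, cCLP minus ex vivo CLP on the log2(scaled value + 1) scale, was -1.02 ± 0.57 (SE; 95% interval -2.33 to 0.29), with adjusted p = 0.484 (limma). Without ex vivo CLP 2 and cCLP 1 Gimap6 fell from 149 ± 24.7 to 38.0 ± 3.63 (SD, n = 3 each), and the log2 fold change was -1.94 ± 0.14 (SE, adjusted p = 1.92e-05). The fitted level was 3.82-fold lower, with a 95% interval from 3.06-fold to 4.78-fold. In this fit the values of the groups did not overlap. In bulk RNA, fewer cells that make Gimap6 and less Gimap6 RNA per cell cannot be told apart.

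Gimap9 and Gimap1 are the other members with enough signal to test. Gimap9 (ENSMUSG00000051124, chromosome 6, 48676129 to 48679114) was listed at 45, 44, 31 and 42 in ex vivo libraries 1 to 4. The values in cCLP 1 to 4 were 41, 41, 44 and 62. These values overlapped in both sets of libraries. The log2 fold change of Gimap9 was 0.06 ± 0.19 (SE, adjusted p = 0.855, limma) over the 8 libraries, with an interval from 1.29-fold lower to 1.40-fold higher. It was 0.19 ± 0.20 (adjusted p = 0.492) over the 6 libraries, with an interval from 1.22-fold lower to 1.57-fold higher, and turned to -0.01 without ex vivo CLP 4. Gimap1, needed in mice for the survival of mature B and T cells (ENSMUSG00000090019, chromosome 6, 48739054 to 48743795), was listed at 21, 15, 10 and 20 in ex vivo libraries 1 to 4. In cCLP 1 to 4 it stood at 23, 14, 18 and 19, again with overlap. The log2 fold change of Gimap1 was 0.05 ± 0.22 (adjusted p = 0.898) over the 8 libraries and -0.06 ± 0.24 (adjusted p = 0.865) over the 6, where its interval ran from 1.53-fold lower to 1.41-fold higher. Its sign turned without ex vivo CLP 1 in the 6 libraries (0.23). For both genes a difference beyond these bounds is outside the interval, which does not show that the levels were alike.

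Genes entered the test if they reached a scaled value of 10 in a number of libraries equal to the size of the smaller group, as did 3 of the 8 members (Gimap6, Gimap9 and Gimap1) in both sets of libraries. All 3 were above 10 in every library, so this filter did not fix their direction. With all 8 libraries limma called 0 of the 3, where it called 0 of 6486 genes (0%). At an unadjusted p below 0.05 there were 0 of the 3 members and 477 of all genes. Over the 6 libraries 1 of the 3 members was called, Gimap6, where 43.0% of 6573 genes were called (20.8% of the genes tested as higher in cCLPs and 22.2% as lower). Groups that did not overlap were seen for 1 of the 3 members and for 55.7% of all genes tested. These shares are near or below the background, so the counts say nothing particular about the family. The median log2 fold change of the 3 members was 0.05 over the 8 libraries, beside -0.0013 over all genes tested, and -0.06 over the 6, beside 0.01.

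**Figure D2:**
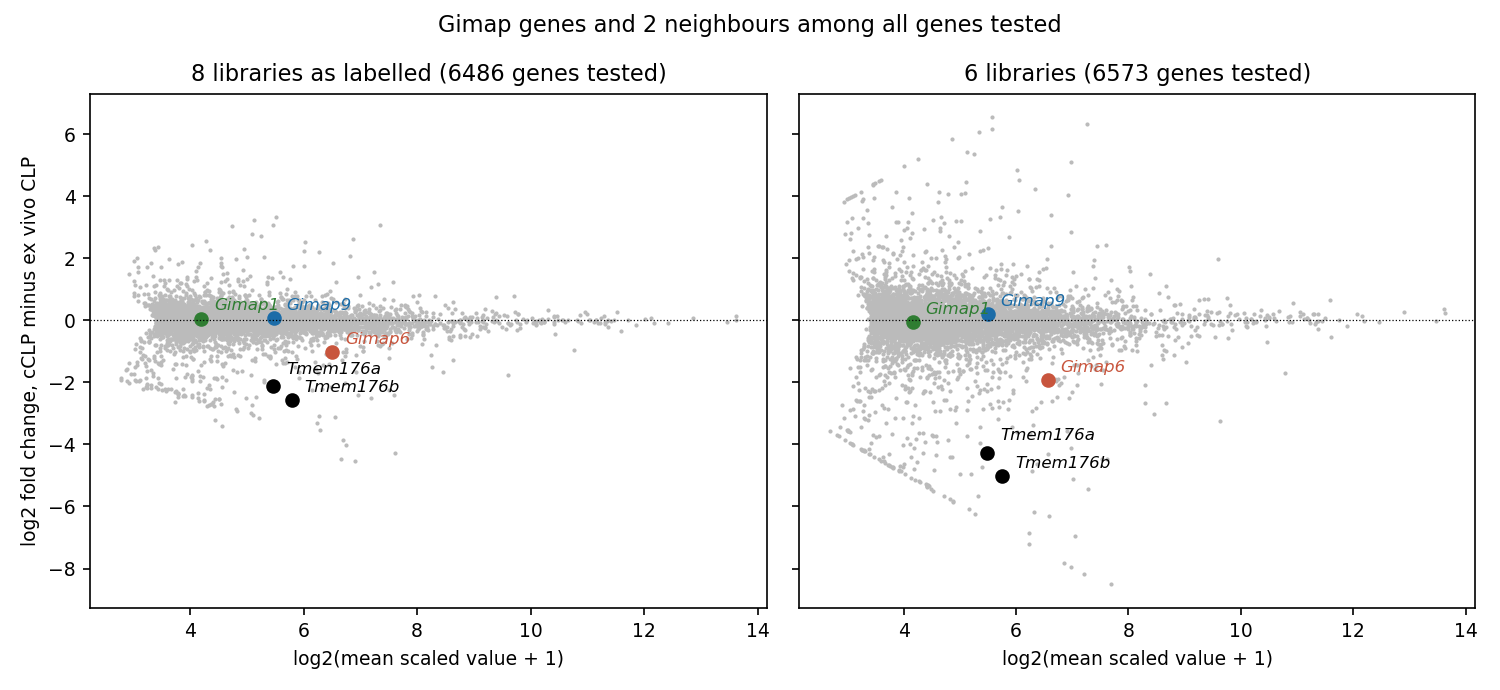
Log2 fold change (cCLP minus ex vivo CLP) against log2(mean scaled value + 1) for all genes tested, over the 8 libraries as labelled (left) and over 6 libraries (right). Each grey dot is a gene; Gimap6 lies at -1.02 on the left and -1.94 on the right, Gimap9 and Gimap1 lie near 0 in both, and the neighbouring genes Tmem176a and Tmem176b lie lower than Gimap6.

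Since a call for Gimap6 and none for Gimap9 does not show that they differ, the ratio between members within each library was compared. The log2 ratio of Gimap6 to Gimap9 was 1.62, -0.36, 1.93 and 1.97 in ex vivo libraries 1 to 4. In cCLP 1 to 4 it was 1.67, -0.35, -0.13 and -0.36. Over the 6 libraries the ratio differed by -2.12, and its values did not overlap between the groups. The exact two-sided permutation p of 0.1 is the smallest that 3 against 3 libraries allow (0.15 adjusted over 3 ratios). As labelled, with 4 against 4, the difference was -1.08 (exact permutation p = 0.257, adjusted 0.386). The ratio of Gimap6 to Gimap1 differed by -1.88 over the 6 libraries (exact permutation p = 0.1, adjusted 0.15) and by -1.07 as labelled (exact permutation p = 0.114, adjusted 0.343). For Gimap9 to Gimap1 the differences were 0.24 (exact permutation p = 0.3) and 0.01 (exact permutation p = 1). A ratio within a library does not depend on the library factors apart from the added 1.

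**Figure D3:**
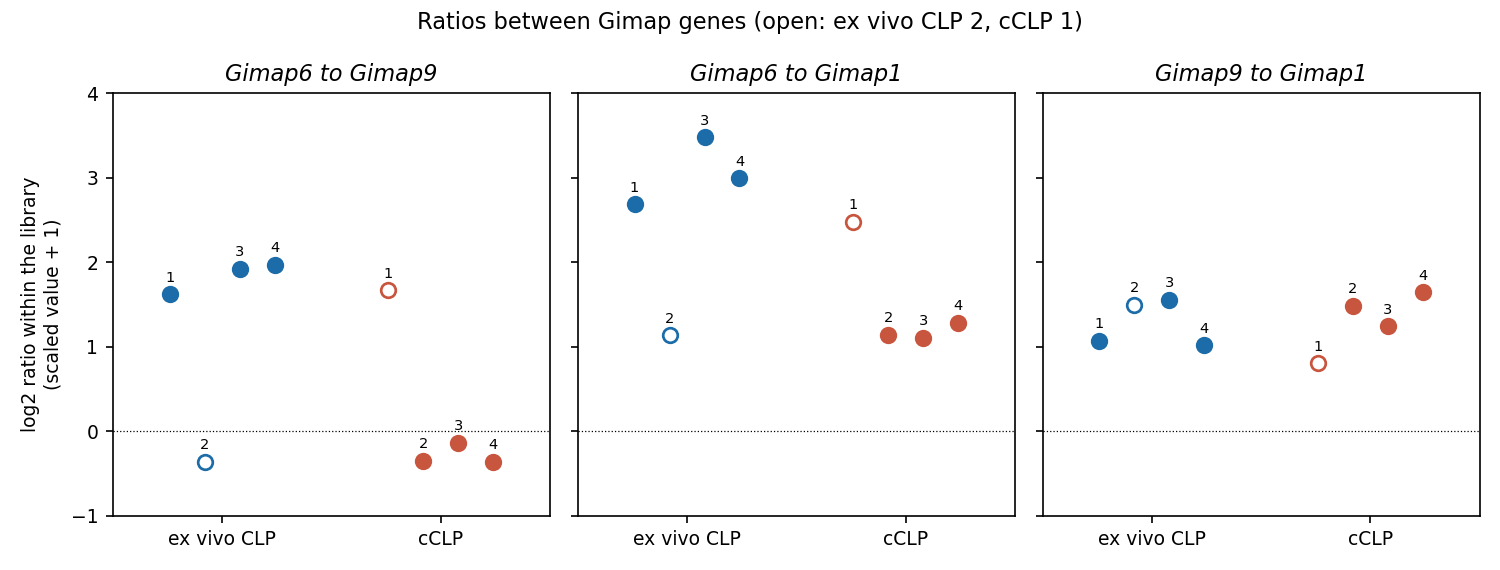
Log2 ratio between pairs of Gimap genes within each library (scaled value + 1), by labelled group, with the replicate number above each point and open circles for ex vivo CLP 2 and cCLP 1. The ratio of Gimap6 to Gimap9 lies between 1.62 and 1.97 in ex vivo CLP 1, 3 and 4 and between -0.36 and -0.13 in cCLP 2, 3 and 4, and the ratio of Gimap9 to Gimap1 overlaps.

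The remaining 5 members were too low to test with the filter. Their log2 fold changes come from a fit to all genes above 0 in at least 1 library, and whole numbers this small limit any fold. Gimap7, whose human counterpart speeds GTP hydrolysis when it pairs with itself or with GIMAP2, had the widest contrast. Gimap7 (ENSMUSG00000043931, chromosome 6, 48718621 to 48724636) was listed at 20, 1, 5 and 10 in ex vivo libraries 1 to 4. The values in cCLP 1 to 4 were 13, 1, 1 and 1. Each library that was low in Gimap6 held Gimap7 at 1. Without ex vivo CLP 2 and cCLP 1, Gimap7 fell from 12.8 ± 10.4 to 0.963 ± 0.103 (SD, n = 3 each), and the log2 fold change was -2.56 ± 0.43 (SE, adjusted p = 0.00275, limma). As the deposited value was 1 in each of cCLP 2, 3 and 4, that SD reflects only the library factors, and the p takes no spread in expression from them. Without ex vivo CLP 1, its highest ex vivo library, the log2 fold change over the rest of the 6 was -2.02. As labelled, the log2 fold change of Gimap7 was -1.25 ± 0.88 (adjusted p = 0.546), and it moved to -0.68 without ex vivo CLP 1 and to -1.95 without cCLP 1.

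Gimap5, a lysosomal GTPase needed for the survival of T cells in mice, had small values in every library. Gimap5 (ENSMUSG00000043505, chromosome 6, 48746197 to 48754210) was listed at 11, 5, 8 and 10 in ex vivo libraries 1 to 4 and at 10, 5, 6 and 8 in cCLP 1 to 4. Its deposited values overlapped between the labelled groups, and over the 6 libraries they met at 8. The log2 fold change of Gimap5 was -0.32 ± 0.27 (adjusted p = 0.588, limma) over the 8 libraries and -0.66 ± 0.21 (adjusted p = 0.0386) over the 6. The adjusted p passed 0.05 when ex vivo CLP 1 (0.0760), ex vivo CLP 3 (0.0841), cCLP 2 (0.119), cCLP 3 (0.108) or cCLP 4 (0.0727) was left out, and with scaling by the sum of values (0.0763), which ended the call. Gimap8, which carries more than 1 GTP-binding domain (ENSMUSG00000064262, chromosome 6, 48647234 to 48660875), was listed at 10, 2, 4 and 5 in ex vivo libraries 1 to 4. In cCLP 1 to 4 it stood at 6, 2, 3 and 4. The highest value of Gimap8 was that of ex vivo CLP 1, and the labelled groups overlapped. Its log2 fold change was -0.43 ± 0.43 (adjusted p = 0.637) over the 8 libraries and -0.93 ± 0.37 (adjusted p = 0.0837) over the 6, where it moved to -0.50 without ex vivo CLP 1.

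Gimap4 and Gimap3 were close to absent from the tables. Gimap4, which speeds the death of mouse T cells once it has been triggered (ENSMUSG00000054435, chromosome 6, 48684549 to 48692060), was listed at 2, 1, 2 and 2 in ex vivo libraries 1 to 4 and at 2, 1, 3 and 2 in cCLP 1 to 4. Gimap3, which acts together with Gimap5 in mouse T cells (ENSMUSG00000039264, chromosome 6, 48764464 to 48770851), was listed at 0, 0, 1 and 1 in ex vivo libraries 1 to 4 and at 0 in every cCLP library. Neither gene separated the groups, and as labelled the log2 fold changes were 0.0041 ± 0.27 for Gimap4 (adjusted p = 0.996) and -0.49 ± 0.29 for Gimap3 (adjusted p = 0.532). The log2 fold changes over the 6 libraries were -0.15 ± 0.27 (adjusted p = 0.679) for Gimap4 and -0.65 ± 0.33 (adjusted p = 0.153) for Gimap3, and that of Gimap3 was called without ex vivo CLP 1 (-1.02, adjusted p = 0.0135). With no filter, 3 of the 8 members (Gimap6, Gimap7 and Gimap5) were called over the 6 libraries, where 36.2% of 13755 genes were called (20.1% of the genes tested as lower in cCLPs). As labelled, 0 of the 8 members were called, as were 0 of 13861 genes (0%).

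**Figure D4:**
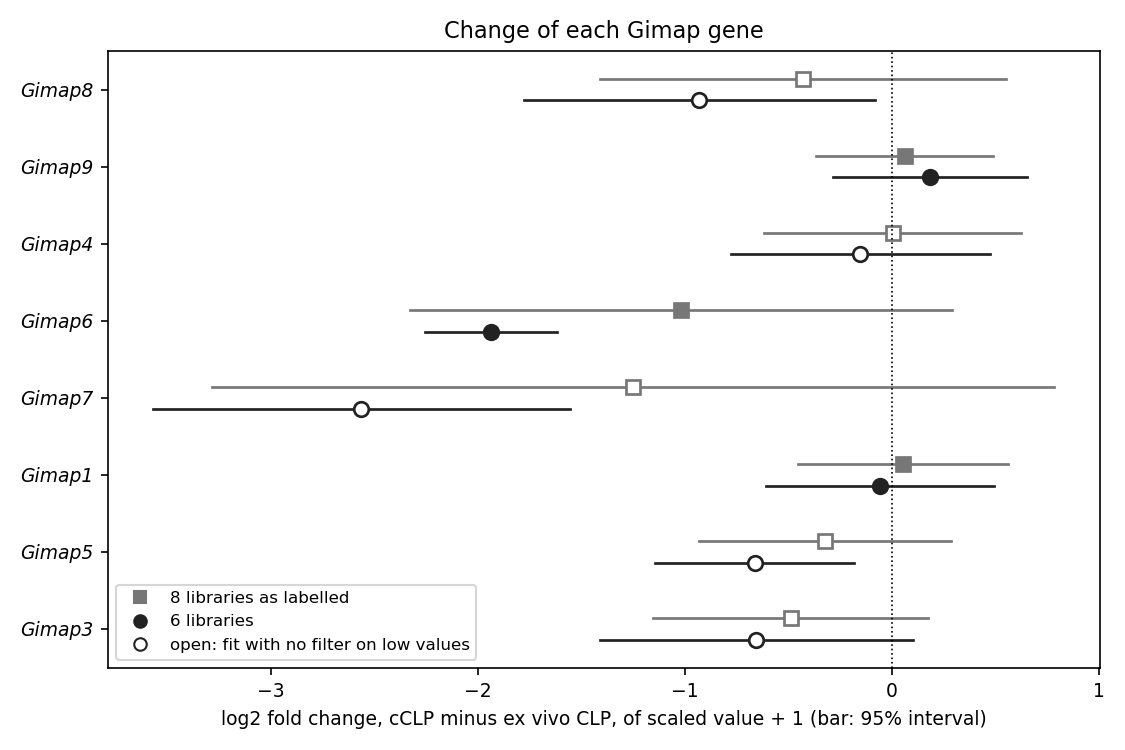
Log2 fold change (cCLP minus ex vivo CLP, of scaled value + 1) of each Gimap gene in chromosome order, with bars for the 95% interval. Squares are the 8 libraries as labelled, circles the 6 libraries, and open symbols genes below the filter; over the 6 libraries the intervals of Gimap6, Gimap7, Gimap5 and Gimap8 lie below 0, and over the 8 libraries every interval includes 0.

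Counting within the cluster could touch single members. Gm28053, an annotated gene that runs from Gimap7 to Gimap5 on their strand, shares 81 exon bases with Gimap7, 198 with Gimap1 and 153 with Gimap5, which is 3.48%, 6.44% and 3.69% of their exon bases. It was listed at 3 or less in every library. Gimap1os, on the opposite strand, covers 36.0% of the exon bases of Gimap1 and was listed at 1 or 0. The kit keeps strand, but the strand setting of the counting is not given in the sources used here, and without strand, reads from Gimap1 and Gimap1os cannot be told apart. Of the stretches of 75 bases (the read length) in Gimap5 transcripts, 1.97% also occurred in Gimap3, as did 3.32% of those of Gimap3 in Gimap5. The transcripts of Gimap6, Gimap9, Gimap8 and Gimap4 shared no stretch of this length with those of another annotated gene.

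The promoters are shown for Gimap6, which fell over the 6 libraries with and without the filter, for its divergent neighbour Gimap7, and for the members that were tested and not called, Gimap9 and Gimap1, so that they can be set side by side. Each is the 250 bases before the RefSeq start (GRCm38.p6), read 5′ to 3′ on the strand of the gene. Capitals mark the ETS letters GGAAGT and the RUNX letters TGTGGT or TGCGGT, on either strand. The windows are chr6:48708245-48708494 (minus strand) for Gimap6, chr6:48718371-48718620 for Gimap7, chr6:48675885-48676134 for Gimap9 and chr6:48738797-48739046 for Gimap1 (plus strand).
Gimap6: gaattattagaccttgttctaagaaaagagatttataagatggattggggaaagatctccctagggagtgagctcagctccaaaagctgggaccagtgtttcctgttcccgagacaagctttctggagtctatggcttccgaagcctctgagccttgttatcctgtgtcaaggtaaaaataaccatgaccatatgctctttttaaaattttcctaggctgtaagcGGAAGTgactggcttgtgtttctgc
Gimap7: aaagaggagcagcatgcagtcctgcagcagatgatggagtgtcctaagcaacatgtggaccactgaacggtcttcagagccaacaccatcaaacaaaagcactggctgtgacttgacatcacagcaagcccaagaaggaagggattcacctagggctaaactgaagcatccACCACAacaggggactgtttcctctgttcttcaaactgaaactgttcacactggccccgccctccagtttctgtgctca
Gimap9: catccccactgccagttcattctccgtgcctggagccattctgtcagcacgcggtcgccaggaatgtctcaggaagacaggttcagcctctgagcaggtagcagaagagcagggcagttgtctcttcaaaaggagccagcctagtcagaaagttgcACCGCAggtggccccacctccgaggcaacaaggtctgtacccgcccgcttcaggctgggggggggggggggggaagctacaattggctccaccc
Gimap1: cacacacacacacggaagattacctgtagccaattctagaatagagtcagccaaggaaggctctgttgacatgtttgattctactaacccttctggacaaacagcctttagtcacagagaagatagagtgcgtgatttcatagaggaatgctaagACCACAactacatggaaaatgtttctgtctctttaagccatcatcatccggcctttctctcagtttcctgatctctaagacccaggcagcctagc
The ETS letters stood in the Gimap6 window, with their first base at -25 from the start, and in none of the other windows shown. RUNX letters stood in the windows of Gimap7 (-79), Gimap9 (-94) and Gimap1 (-95), and not in that of Gimap6. Over the 9 RefSeq windows of the 8 members (Gimap8 has 2), ETS letters were in 2, Gimap6 and Gimap5, and in 19.7% of all 32851 windows of the same length. Either RUNX form was in 4 of the 9 and in 18.6% of all windows. The E-box letters CANNTG were in 7 of the 9 and in 66.2% of all, at places that overlap the RUNX letters of Gimap9 and Gimap4. The Sp/Klf letters GGGCGG were in 2 of the 9 and in 32.7%. The Ikaros letters TGGGAA and the letters of an interferon regulatory factor element were in 0 of the 9 and in 21.6% and 2.98% of all windows. A match describes the letters and is not a site.

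Genes beside the cluster were compared next. Past Gimap3 lie Tmem176b and Tmem176a, a pair of membrane protein genes, and Aoc1, which was listed at 0 in all 8 libraries. Tmem176b was listed at 84, 3, 76 and 154 in ex vivo libraries 1 to 4. The values in cCLP 1 to 4 were 123, 2, 3 and 2. High and low libraries were the same as for Gimap6. Its log2 fold change was -2.57 ± 1.5 (adjusted p = 0.484, limma) over the 8 libraries and -5.03 ± 0.15 (adjusted p = 2.23e-07) over the 6. That of Tmem176a was -2.13 ± 1.3 (adjusted p = 0.484) over the 8 and -4.26 ± 0.17 (adjusted p = 8.6e-07) over the 6. Both were below 10 in each of cCLP 2, 3 and 4, so the filter fixed their direction. On the other side lie AI854703 and Zfp775, both listed at 4 or less, and Repin1, which encodes a zinc finger protein. Repin1 rose from 16.8 ± 0.554 (SD, n = 3) to 26.3 ± 2.86 over the 6 libraries (log2 fold change 0.61 ± 0.11, adjusted p = 0.0025). As labelled, its log2 fold change was 0.39 ± 0.16 (adjusted p = 0.484).

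The genes most like each tested member were those with the smallest root mean square difference in log2 value over the 8 libraries, after each gene was centred on its own mean, among 6483 genes outside the family. For Gimap6 they were Dapp1, an adaptor in phosphoinositide signalling of B cells (0.14), and H2-M3, a non-classical MHC class I gene (0.14). Dapp1 was listed at 63, 19, 61 and 88 in ex vivo libraries 1 to 4. Its values in cCLP 1 to 4 were 86, 17, 21 and 24. For Gimap9 they were Ifi47, an interferon-inducible GTPase (0.06), and Tmem129, a ubiquitin ligase of the endoplasmic reticulum (0.07). Ifi47 was listed at 50, 44, 33 and 48 in ex vivo libraries 1 to 4 and at 48, 46, 48 and 69 in cCLP 1 to 4. For Gimap1 the nearest was Fam214a (0.15). Gimap9 and Gimap1 differed from each other by 0.28, and Gimap6 from them by 1.06 and 0.91. Set among the 6483 genes outside the family, Gimap1 would rank 2076 in nearness to Gimap9, and Gimap9 would rank 653 in nearness to Gimap1. So many other genes were nearer to each of these 2 than they were to each other. None of the genes named here as nearest lies on chromosome 6.

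Partners and effectors reported for Gimap proteins were followed as a list of 13 genes, of which 10 were tested. As labelled, limma called 0 of the 10, with a median log2 fold change of -0.19 beside -0.0013 over all genes. With the 6 libraries 2 were higher and 5 lower, with a median of -0.28 beside 0.01, where 43.0% of all genes were called. Gabarapl2, the autophagy partner of Gimap6, was listed at 22, 30, 20 and 33 in ex vivo libraries 1 to 4. Its cCLP values were 29, 34, 37 and 41. It rose over the 6 libraries, where Gimap6 fell (0.47 ± 0.09, SE, adjusted p = 0.00393). The cell death gene Bax also rose (0.46 ± 0.12, adjusted p = 0.0164). The survival genes Bcl2 (-1.26 ± 0.15, adjusted p = 0.000321) and Mcl1 (-1.34 ± 0.18, adjusted p = 0.000555) fell, as did Bcl2l11, Bak1 and the lysosomal membrane gene Lamp1. As labelled, the log2 fold changes were 0.29 for Gabarapl2, 0.36 for Bax, -0.53 for Bcl2 and -0.72 for Mcl1, none of them called. Bcl2l11 was below 10 in each of cCLP 2, 3 and 4, so the filter fixed its direction. Gsk3b, Foxo1 and Bcl2l1 were too low to test.

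Other GTPases of immune cells, the interferon-inducible families, formed a list of 18 genes, of which 16 were in the tables and 7 were tested. As labelled, 0 of the 7 were called (median -0.40), and over the 6 libraries 0 were higher and 5 lower (median -0.98 beside 0.01 over all genes, 22.2% of which were called lower). Gbp3 was listed at 27, 1, 29 and 49 in ex vivo libraries 1 to 4, and its cCLP values were 38, 0, 1 and 1. Igtp had a log2 fold change of -0.90 ± 0.19 (adjusted p = 0.00586) over the 6 libraries and of -0.40 ± 0.34 (adjusted p = 0.534) as labelled. Gbp2, Gbp3, Gbp7 and Tgtp2 were below 10 in each of cCLP 2, 3 and 4, so the filter fixed their direction. Irgm1 and Ifi47 were not called over the 6 libraries either (0.13 ± 0.23, adjusted p = 0.670, and 0.19 ± 0.20, adjusted p = 0.476).

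Markers of the sort and of other cells were read beside Gimap6. As labelled, none of them was called, and the counts that follow are over the 6 libraries, where 20.8% of all genes were called higher and 22.2% lower. Flt3, Il7r and Cd27 of the sort gate were above 10 in every library. Of the 4 gate genes, all tested, 1 was higher over the 6 libraries (Il7r) and 1 lower (Ly6d). Ly6d, sorted against, was listed at 22 to 41 in the 4 libraries that were high in Gimap6 and at 1 or 0 in the other 4, so the filter fixed its direction. For the 15 myeloid markers, summed scaled values of 1449 to 3222 were found among ex vivo CLP 1, 3 and 4, 1747 for cCLP 1, 169 for ex vivo CLP 2 and 270 to 299.7 among cCLP 2, 3 and 4, with 13 of 13 tested lower. Of these 13, only Mpo was above 10 in cCLP 2, 3 and 4, and for the rest the filter fixed the direction. In ex vivo CLP 1, 3 and 4, in this order, the myeloid sum was 1449, 3222 and 3069 and the scaled value of Gimap6 was 172, 148 and 123. These are 3 libraries, and no relation between the sum and Gimap6 was tested. The 11 stem and multipotent progenitor markers gave sums of 774 to 928 and 135 to 168 for the same sets of 3 libraries, and 4 of 5 tested were lower (Cd34, Kit, Erg and Ly6a, the last with its direction fixed by the filter). The part of either list in the result for Gimap6 was not tested.

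Markers of mature lymphocytes and of non-blood cells were summed in the same way. The 15 mature T cell markers had sums of 33.4 to 62.5 over ex vivo CLP 1, 3 and 4 and of 16.8 to 21.1 over cCLP 2, 3 and 4. Cd3e, Cd8a, Cd8b1, Bcl11b and Themis were listed at 0 in all 8 libraries, and Lck, the only marker tested, was not called (-0.58 ± 0.27, adjusted p = 0.116, limma). Ex vivo CLP 1 had the highest T cell sum and the highest scaled values of Gimap6, Gimap7, Gimap8, Gimap5, Gimap9 and Gimap1. Lck, listed at 31 there, made the largest part of that sum. The same library also had the highest mature B cell, endothelial and stromal sums, so this is not particular to T cell markers. A link to the Gimap values was not tested. The 10 mature B cell markers summed to 44.3 to 65.0 and 15.4 to 26.3, with 1 of 1 tested lower (Cd79b, listed at 1, 2 and 4 in cCLP 2, 3 and 4, so that the filter fixed its direction). Other B lineage genes went both ways. Cd79a stood at 7, 7 and 16 in these cCLP libraries against 1 in the 3 ex vivo libraries, and Ebf1 at 7, 6 and 9 against 1, 0 and 0. Blk stood at 0 in these cCLP libraries against 17, 6 and 10, and Cd22 at 0 against 2, 3 and 5. These genes were too low to test. The 13 natural killer and innate lymphoid markers summed to 56.4 to 73.4 and 7.37 to 14.4, with 1 of 1 tested lower (Nkg7), and Ncr1 at 0. Nkg7 was listed at 4, 12 and 5 in cCLP 2, 3 and 4 against 36, 39 and 85 in ex vivo CLP 1, 3 and 4. It passed the filter through the ex vivo libraries, where it was high, so its direction is not independent of the filter. The 12 endothelial markers summed to 131.5 to 149.6 and 102 to 119, mostly Pecam1 and Egfl7, with 1 of 2 tested lower, and Cdh5 and Kdr at 0. The 12 stromal markers summed to 11.1 to 15.9 and 4.80 to 9.48, with Col1a1 and Col1a2 at 0 in all libraries, and the 12 erythroid and platelet markers to 9.81 to 51.9 and 4.24 to 7.68. No marker of the last 2 lists was tested.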

How the data were processed

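RNA of sorted mouse CLPs (100 ng per library) was sequenced as paired reads of 75 nt after ribosomal RNA removal, per the labels. The submitters' processing notes name TopHat2, Bowtie2 and HTSeq 1.0.6 with GRCm38 (mm10). Their roles, the annotation release, the strand setting and any scaling are not stated. The deposited values are scores, whole numbers for each Ensembl gene. Such a score is not a read count, since between genes with values of 5 to 50 the closest pair of libraries had a dispersion index of 0.189, and 12 of 28 pairs lay below 1, where simulated Poisson counts gave 0.971 to 1.02. Depth is therefore unknown, no counting interval can be given and no count model was used. No pair of libraries was identical.

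Gene names, positions and exons came from GENCODE vM21 (37607 of 39179 IDs matched), and promoters from RefSeq (GRCm38.p6), which held windows for all 8 members. Each library factor was a trimmed mean of log ratios (30% of ratios and 5% of levels trimmed at each end). Genes that passed the filter (a scaled value of 10) were fitted on the log2(scaled value + 1) scale by limma 3.58.1 (R 4.3.3), moderated robustly and with a trend. Tests were two-sided, with Benjamini-Hochberg adjustment over all genes tested and a threshold of 0.05. Ratios between members were compared by exact permutation tests (SciPy 1.17.1). The fit was tested on simulated data.

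The named genes were the 8 members, the 3 nearest protein-coding genes on each side, the 2 genes nearest in pattern to each tested member, and called members of fixed lists. A gene that this rule names is not reported here. The members, the lists and the 6-library comparison were chosen with earlier results of these data known. Alternatives were other scalings, filters, pseudocounts and moderation, a replicate block and leaving out each library. Fits that join no filter with another scaling or a left-out library were added after seeing the data. Whether replicate numbers pair the libraries could not be told.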

Additional observations from a re-analysis of the deposited data

Results flagged for a closer look

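In the cCLP group as labelled, cCLP 1 stood apart from the other 3 libraries in Gimap6, with a scaled value of 127 where the next highest was 40.7. The gap was 0.925 of the range of the group, above the critical value of Dixon's test for 4 values. The same library stood apart in Gimap7, with a scaled value of 12.4 against 1.05 in the next highest (0.982 of the range). The 8 members in each labelled group make 16 groups of 4 values, and all were examined but Gimap3 in cCLPs, which was 0 throughout. Chance flags about 1 in 20, a rate that need not hold for members with whole numbers near 0. Both flags come from the library whose whole profile lay with ex vivo CLP 1, 3 and 4. In the ex vivo CLP group ex vivo CLP 2 was lowest in Gimap6, Gimap7, Gimap8, Gimap5 and Gimap4, but its gap did not pass this test in any of them. In Gimap3 it stood at 0 together with ex vivo CLP 1.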

How the results depend on the processing

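Over the 8 libraries, 0 Gimap genes were called under every alternative but 1, leaving out ex vivo CLP 2 and cCLP 1 together, which gave 1 (Gimap6, log2 fold change -1.94) and 2828 genes in all. With the filter and 1 library left out, 0 members and 0 genes in all were called in each case, while with no filter and without cCLP 1 there was 1 gene, no member. Gimap6 ranged from -1.50 to -0.79. Over the 6 libraries Gimap6 was lower and called under all 15 alternatives, from -2.07 to -1.75, and from -2.07 to -1.84 with 1 library left out. The count of members called was 3 with no filter and 3 with a scaled value of at least 1, where all genes called numbered 4976 and 4784, because more genes are then tested. With the filter kept it was 1 with any library left out (2165 to 3408 genes in all). With no filter and 1 library left out, Gimap7 ranged from -2.93 to -2.02 over the 6 libraries and from -1.95 to -0.68 over the 8. Whether the numbers of the replicates pair the libraries could not be told. Same-numbered deviations from the means of the labelled groups correlated at 0.61, 0.84, -0.55 and -0.86. Those means include ex vivo CLP 2 and cCLP 1, whose profiles lay with the other group, so the signs cannot show pairing or its absence. With the replicate block 0 members were called over the 8 libraries. Over the 6 libraries limma with this block called 2 members, Gimap6 and Gimap9 (0.45, adjusted p = 0.0374), with 2498 genes in all, and Gimap1 turned to 0.30. Among the 6, replicates 1 and 2 each stand in 1 group only, so the block values rest on replicates 3 and 4 alone.

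Small changes turned sign. Gimap1 turned from 0.05 to -0.057 without both libraries, and ranged from -0.080 to 0.24 (8 libraries) and -0.26 to 0.23 (6) with 1 left out. Gimap9 ranged from -0.10 to 0.18 and from -0.014 to 0.40. With no filter Gimap4 (8 libraries) turned from 0.0041 to -0.0034 with relative log expression scaling, and to -0.13, -0.067, -0.019 and -0.15 without ex vivo CLP 2, ex vivo CLP 4, cCLP 1 and cCLP 3, in a range of -0.15 to 0.16. Over the 6 libraries it ranged from -0.39 to 0.059. No depth limit can be given, and values of 1 to 10 cannot resolve small folds.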
